A study of Mus musculus with 10 samples.

Results

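The peroxisome proliferator-activated receptors (PPARs), the retinoid X receptors (RXRs) they pair with, the PGC-1 coactivators and estrogen-related receptor alpha (ERRα) were followed in obstructed mouse kidneys with and without DMM. The group holds 9 genes, picked by symbol from a table of 54532 genes: Ppara, Ppard, Pparg, Rxra, Rxrb, Rxrg, Ppargc1a, Ppargc1b and Esrra. All 9 were found, and 8 had enough reads to be tested. Rxrg was the exception.

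PPARs are nuclear receptors that bind fatty acids and their derivatives, join an RXR, and sit on DNA as a pair at the genes they control. PGC-1 proteins do not bind DNA themselves but are recruited by PPARs, by ERRα and by other factors, and they raise the transcription of genes for mitochondria and fat burning. In the kidney, PPARα and PGC-1α are best known from the tubules, above all the proximal tubule, which draws most of its energy from the oxidation of fatty acids.

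The RNA came from kidney tissue (bulk RNA-seq) after unilateral ureteral obstruction (UUO), in which the ureter is tied off. The mice were wild-type C57BL/6 males that were operated on at 8 weeks of age and killed 14 days later. The control group received PBS and the treated group DMM (dimethyl malonate, an inhibitor of succinate dehydrogenase) by intraperitoneal injection at 40 mg/kg every other day, with 5 mice and 5 libraries in each. Every kidney analysed here was obstructed, so both groups share the injury and the question is what DMM added to it. Total counts lay between 16457495 and 18078777 per library (median 17825223) in the PBS group and between 15722527 and 19475833 (median 16794390) in the DMM group. Levels are given as CPM, the count of a gene relative to the TMM-scaled total of its library, and each mean comes with the SD between mice.

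A few libraries stood apart. DMM replicate 4 was alone on the first principal component of log2 CPM, which held 45.1% of the variance, at -122.7 against 2.36 to 20.7 in the other libraries. It had 20029 genes with at least 1 read, against 22898 to 24083 elsewhere, and 5.62% of its reads came from mitochondrially encoded genes. On the second component, with 29.0% of the variance, DMM replicates 1 and 4 (27.4 and 15.3) lay among PBS replicates 1, 2, 4 and 5 (13.5 to 46.8), while PBS replicate 3 (-18.3) lay on the side of DMM replicates 2, 3 and 5 (-51.5 to -30.5). DMM replicate 1 resembled PBS replicate 5 most closely (Pearson r of log2 CPM across genes 0.989; genes are not independent replicates). PBS replicate 3 was about as close to PBS replicate 1 as to DMM replicate 2 (r of 0.982 each). The group means in the deposited table give PBS replicate 3 and DMM replicate 1 no weight at all. The tests on the members and on the lists of the pathway are therefore given over all 10 libraries and over the 8 that remain without PBS replicate 3 and DMM replicate 1, FPKM levels and shares are given over all 10, and some values without a single library are added. The 8 libraries are part of the 10, so the second set is not an independent check. No reason for leaving these libraries out is given in the sources used here. Both lay towards the opposite group for Ppara and for other genes, so leaving them out narrows the spread within the groups, and the p-values over the 8 are too small to be read as tests on all the mice: calls over the 8 describe those libraries.

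To ask which genes responded to DMM, edgeR's quasi-likelihood test was run on all genes with enough reads, and a gene was called at an adjusted p under 0.05 with a fold change above 1.5. Over all 10 libraries edgeR called 0 of 16505 genes higher and 0 lower (0% each way), and 0 of the 8 tested members. With the p left unadjusted (under 0.05) and the same fold change, 315 genes were higher (1.91%) and 678 lower (4.11%), and 2 members were among the higher ones, Ppara and Ppargc1a. DESeq2 called 14 genes higher and 36 lower over the same libraries, with 0 members among them. Over the 8 libraries edgeR called 452 of 16550 genes higher (2.73%) and 590 lower (3.56%), and again 2 of the 8 members, Ppara and Ppargc1a, both higher. At the unadjusted threshold over the 8 libraries 6.45% of genes were higher and 7.24% lower, and the members past it were again Ppara and Ppargc1a.

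Groups that do not overlap were common over the 8 libraries. DMM values lay wholly above PBS values for 9.45% of genes and wholly below for 10.6%, and wholly above for 3 of the 8 tested members, Ppara, Rxra and Ppargc1a. Over all 10 libraries 0.794% of genes lay wholly above and 1.16% wholly below, with 0 members in either class.

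**Figure D1:**
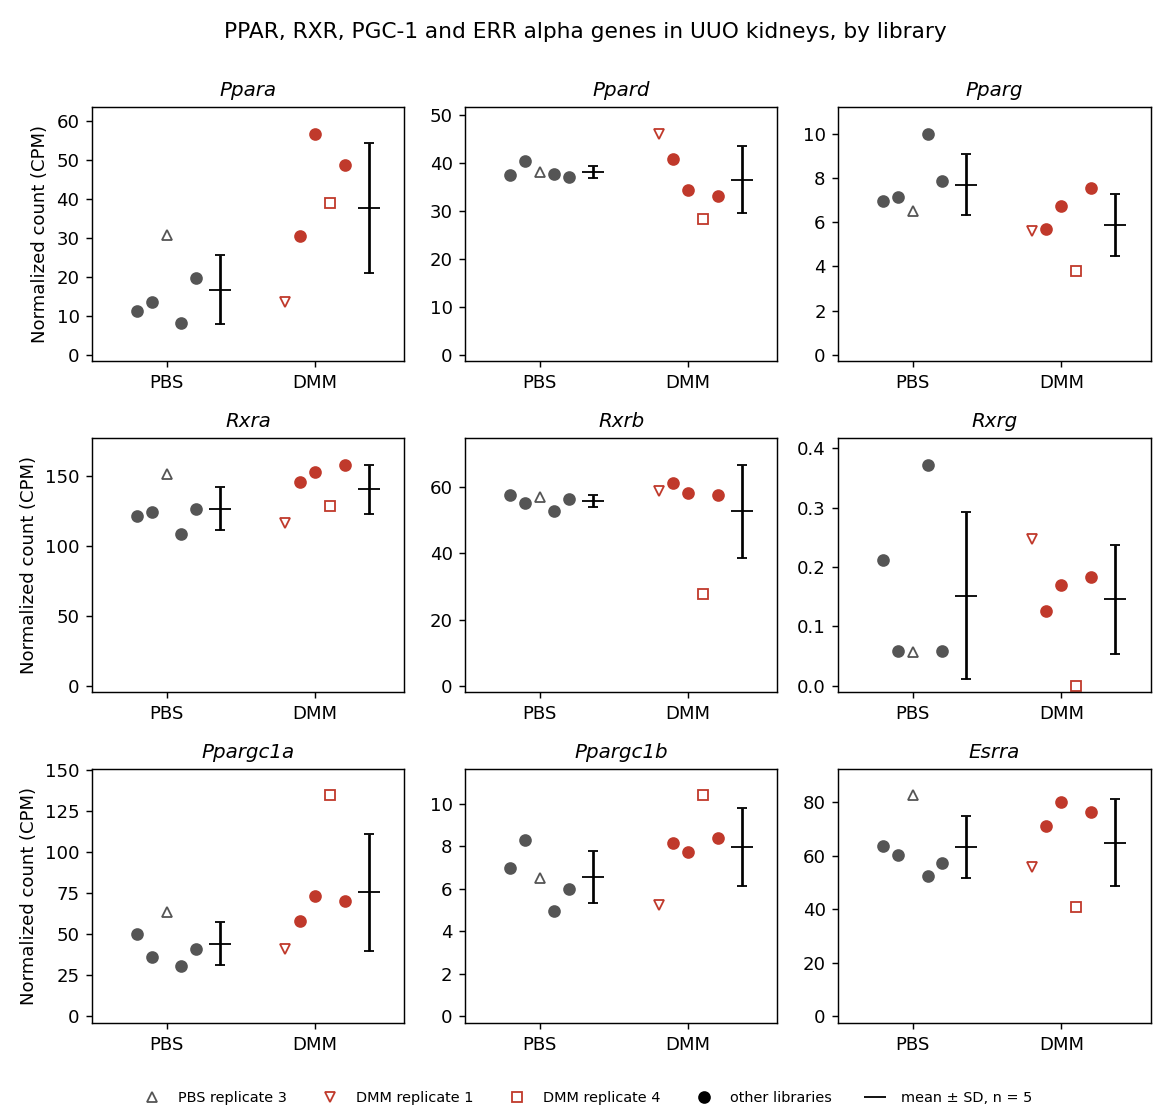
Normalized count (CPM, vertical axis) of each of the 9 genes in PBS and DMM kidneys, 1 point per library, with open symbols for PBS replicate 3, DMM replicate 1 and DMM replicate 4. The bar beside each group is the mean ± SD over 5 libraries. For Ppara, 4 DMM libraries sit between 30.6 and 56.8 CPM and DMM replicate 1 sits at 13.6 CPM, inside the PBS range.

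Ppara (ENSMUSG00000022383, chromosome 15, 85734983 to 85802819, mm10, plus strand) encodes PPARα, the receptor that drives genes of fatty acid oxidation in mitochondria and peroxisomes. Its CPM was 11.2, 13.7, 30.8, 8.25 and 19.8 in PBS replicates 1 to 5 and 13.6, 30.6, 56.8, 38.9 and 48.8 in DMM replicates 1 to 5. PBS replicate 3 and DMM replicate 1 were the libraries that crossed, the former about as high as the lowest of the other DMM kidneys and the latter as low as most PBS kidneys, while the remaining libraries did not overlap. Over all 10 libraries the mean was 16.7 ± 8.92 in PBS and 37.7 ± 16.7 CPM in DMM (SD, n = 5 each), a log2 fold change of 1.17 (SE 0.41) that did not pass (edgeR adjusted p = 0.387, unadjusted p = 0.0158). Over the 8 libraries Ppara rose from 13.2 ± 4.92 to 43.8 ± 11.4 CPM (SD, n = 4 each), a log2 fold change of 1.73 (SE 0.29, edgeR adjusted p = 0.0109). That is 3.31-fold, against 2.26-fold over all 10. It was called each time 1 of the 8 libraries was left out, with edgeR adjusted p between 0.00229 and 0.0406. In bulk tissue, more cells of a type that expresses a gene and more RNA of it per cell cannot be told apart.

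Ppard (ENSMUSG00000002250, chromosome 17, 28232700 to 28301474, plus strand) encodes PPARδ, a receptor found in most tissues. PBS kidneys held 37.7, 40.4, 38.2, 37.8 and 37.1 CPM of it and DMM kidneys 46.2, 41.0, 34.4, 28.3 and 33.2 CPM. The PBS values were tight and the DMM values spread to both sides of them, with DMM replicate 1 the highest of all libraries and DMM replicate 4 the lowest. The log2 fold change was -0.063 (SE 0.13, edgeR adjusted p = 0.851) over all 10 libraries and -0.16 (SE 0.13, edgeR adjusted p = 0.515) over the 8. Without DMM replicate 4 the first of these was 0.016, so the sign over all 10 rested on that library. Over the 8 it was -0.081 without DMM replicate 4 and -0.26 without DMM replicate 2.

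Pparg (ENSMUSG00000000440, chromosome 6, 115360951 to 115490399, plus strand) encodes PPARγ, the receptor that governs fat cell formation and is known in the kidney mainly from the collecting duct. Its CPM was 6.94, 7.12, 6.52, 10.002 and 7.88 in PBS replicates 1 to 5 and 5.62, 5.67, 6.74, 3.81 and 7.54 in DMM replicates 1 to 5. The highest library was PBS replicate 4 and the lowest DMM replicate 4, and the groups overlapped in the middle. The log2 fold change was -0.39 (SE 0.20, edgeR adjusted p = 0.508) over all 10 libraries and -0.43 (SE 0.24, edgeR adjusted p = 0.350) over the 8. Leaving out PBS replicate 4 gave -0.30 over the 8 libraries, and leaving out DMM replicate 4 gave -0.26. Fat cell markers were also highest in PBS replicate 4: their summed CPM was 164 there and 25.3 to 73.7 in the other libraries, led by Fabp4. Of the 7 fat cell markers, 0 were at 0 reads in PBS replicate 4, while Lep was at 0 in 9 of the 10 libraries and Plin1 in 7. The part of fat tissue in the level of Pparg was not tested. An antisense gene, Gm44079, overlaps Pparg and averaged 0.0179 CPM.

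Levels of different genes were compared only per length, in the FPKM values that the authors deposited. Among the PPARs, Ppara made up 34.6 ± 12.3% of the family's summed FPKM in PBS kidneys and 56.4 ± 15.8% in DMM kidneys (SD, n = 5 each). By library this share was 28.4, 31.4, 52.4, 20.3 and 40.4% in PBS replicates 1 to 5 and 30.6, 51.9, 68.3, 66.7 and 64.6% in DMM replicates 1 to 5. Ppara was thus the main PPAR transcript in PBS replicates 3 and 5 and in DMM replicates 2 to 5, and Ppard was the main one in the other 4 libraries. Ppard supplied 43.1 ± 6.86% in PBS and 31.4 ± 13.4% in DMM kidneys, and Pparg 22.3 ± 6.33% and 12.2 ± 2.96%. The sum over the family was 11.97 ± 2.04 FPKM in PBS and 16.6 ± 3.98 FPKM in DMM kidneys. These shares were not tested.

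**Figure D2:**
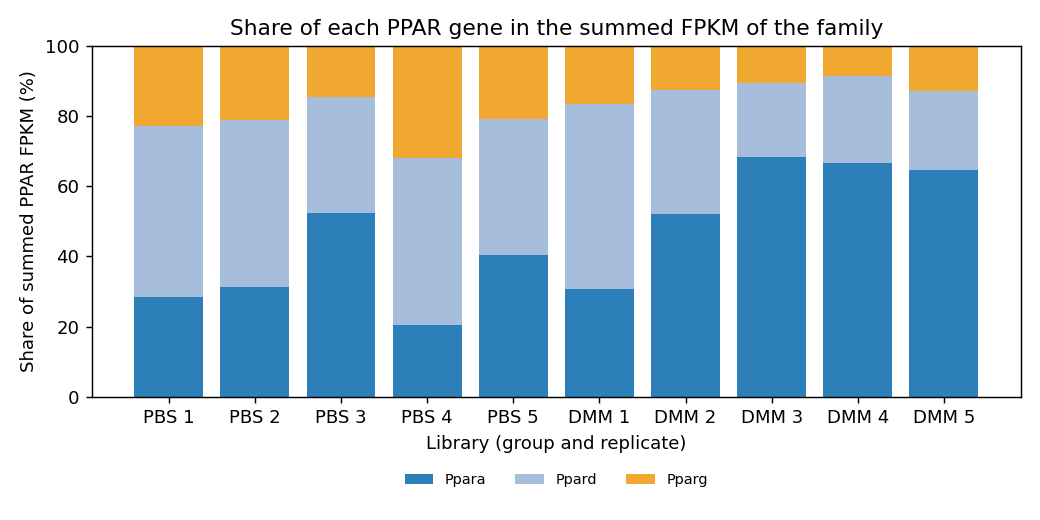
Share of Ppara, Ppard and Pparg in the summed FPKM of the PPAR genes (percent, vertical axis) in each of the 10 libraries. The Ppara share runs from 20.3% in PBS replicate 4 to 68.3% in DMM replicate 3, and DMM replicate 1 has 30.6%, within the PBS range.

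Rxra (ENSMUSG00000015846, chromosome 2, 27676440 to 27762957, plus strand) encodes RXRα, the RXR form best known from liver and kidney. Its CPM was 122, 124, 151, 109 and 127 in PBS replicates 1 to 5 and 116, 146, 153, 128 and 158 in DMM replicates 1 to 5. As with Ppara, PBS replicate 3 was high for its group and DMM replicate 1 low, and the other libraries did not overlap, though DMM replicate 4 lay barely above the PBS kidneys. The log2 fold change was 0.15 (SE 0.12, edgeR adjusted p = 0.623) over all 10 libraries and 0.28 (SE 0.11, edgeR adjusted p = 0.174) over the 8. Leaving out DMM replicate 4 from the 8 gave 0.34 with an edgeR adjusted p of 0.00604, a difference that stayed under the fold change needed for a call.

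Rxrb (ENSMUSG00000039656, chromosome 17, 34031812 to 34038393, plus strand) encodes RXRβ, which is expressed in nearly all tissues. It measured 57.4, 55.0, 57.0, 52.7 and 56.2 CPM in PBS kidneys and 58.7, 60.9, 58.1, 27.7 and 57.4 CPM in DMM kidneys. DMM replicate 4 was far below every other library, and the other 4 DMM values lay just above the PBS range. The log2 fold change was -0.082 (SE 0.19, edgeR adjusted p = 0.869) over all 10 libraries and -0.12 (SE 0.23, edgeR adjusted p = 0.808) over the 8, and it turned positive without DMM replicate 4, at 0.080 and 0.089.

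Rxrg (ENSMUSG00000015843, chromosome 1, 167598384 to 167639623, plus strand) encodes RXRγ, a form known from muscle and brain. It had 4, 1, 1, 7 and 1 reads in PBS replicates 1 to 5 and 4, 2, 3, 0 and 3 reads in DMM replicates 1 to 5. With 0 reads, DMM replicate 4 allows a level of up to 0.181 CPM (3 counts, counting error only). No fold change is given, since the mean was 0.152 CPM in PBS and 0.145 CPM in DMM kidneys, below this limit in both.

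Rxra supplied 60.3 ± 2.38% of the summed RXR FPKM in PBS kidneys and 64.7 ± 6.93% in DMM kidneys (SD, n = 5 each). Rxrb gave 39.5 ± 2.25% and 35.1 ± 6.83%, and Rxrg at most 0.473% in any library.

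Ppargc1a (ENSMUSG00000029167, chromosome 5, 51454250 to 51567726, minus strand) encodes PGC-1α, the coactivator best known for inducing mitochondrial genes. Its CPM was 50.2, 36.3, 63.5, 30.6 and 41.0 in PBS replicates 1 to 5 and 40.9, 58.1, 73.3, 135 and 70.5 in DMM replicates 1 to 5. DMM replicate 4 stood well above all other libraries, PBS replicate 3 reached into the DMM range, and DMM replicate 1 sat in the middle of the PBS range. Over all 10 libraries the mean was 44.3 ± 12.9 in PBS and 75.5 ± 35.4 CPM in DMM (SD, n = 5 each), a log2 fold change of 0.77 (SE 0.30) that did not pass (edgeR adjusted p = 0.409, unadjusted p = 0.0262). Over the 8 libraries Ppargc1a rose from 39.5 ± 8.26 to 84.1 ± 34.3 CPM (SD, n = 4 each), with a log2 fold change of 1.09 (SE 0.27, edgeR adjusted p = 0.0450).

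The call for Ppargc1a was close to the threshold and depended on single libraries. Without DMM replicate 4 the log2 fold change fell to 0.77 over the 8 libraries, still called (edgeR adjusted p = 0.00609), and to 0.45 over the 10. The call over the 8 was lost without PBS replicate 1, 2, 4 or 5 (edgeR adjusted p = 0.0675, 0.126, 0.140 and 0.124) and without DMM replicate 3 or 5 (0.0881 and 0.0808). It was kept without DMM replicate 2 (edgeR adjusted p = 0.0364). Across the fits without 1 of the 8 libraries, the log2 fold change lay between 0.77 (without DMM replicate 4) and 1.22 (without DMM replicate 2). The fits that lost the call lay within this range.

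Ppargc1b (ENSMUSG00000033871, chromosome 18, minus strand) encodes PGC-1β, a close relative with overlapping targets. PBS kidneys had 6.99, 8.30, 6.52, 4.95 and 6.0 CPM and DMM kidneys 5.25, 8.13, 7.71, 10.4 and 8.39 CPM. DMM replicate 4 was again the highest library, DMM replicate 1 was among the lowest, and PBS replicate 2 lay inside the range of the other DMM kidneys. The log2 fold change was 0.28 (SE 0.20, edgeR adjusted p = 0.582) over all 10 libraries and 0.40 (SE 0.20, edgeR adjusted p = 0.299) over the 8. Without DMM replicate 4 these fell to 0.17 and 0.30. Ppargc1a accounted for 79.8 ± 4.70% of the summed FPKM of both PGC-1 genes in PBS kidneys and for 84.2 ± 2.88% in DMM kidneys (SD, n = 5 each).

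Esrra (ENSMUSG00000024955, chromosome 19, 6910977 to 6921813, minus strand) encodes ERRα, an orphan nuclear receptor that works with PGC-1α on genes of the citric acid cycle and the respiratory chain. It measured 63.7, 60.2, 82.5, 52.6 and 57.1 CPM in PBS replicates 1 to 5 and 55.9, 71.1, 79.9, 40.9 and 76.2 CPM in DMM replicates 1 to 5. PBS replicate 3 was the highest library and DMM replicate 4 the lowest, and DMM replicates 2, 3 and 5 lay above the other PBS kidneys. The log2 fold change was 0.036 (SE 0.19, edgeR adjusted p = 0.947) over all 10 libraries and 0.20 (SE 0.20, edgeR adjusted p = 0.613) over the 8. Leaving out DMM replicate 4 from the 8 raised it to 0.37 with an edgeR adjusted p of 0.00687, under the fold change needed for a call, and leaving out DMM replicate 3 or 5 lowered it to 0.10 or 0.13. The end of Esrra overlaps Trmt112 on the opposite strand by 73 bases, and Trmt112 averaged 26.2 CPM, so some reads of this stretch may belong to either gene.

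**Figure D3:**
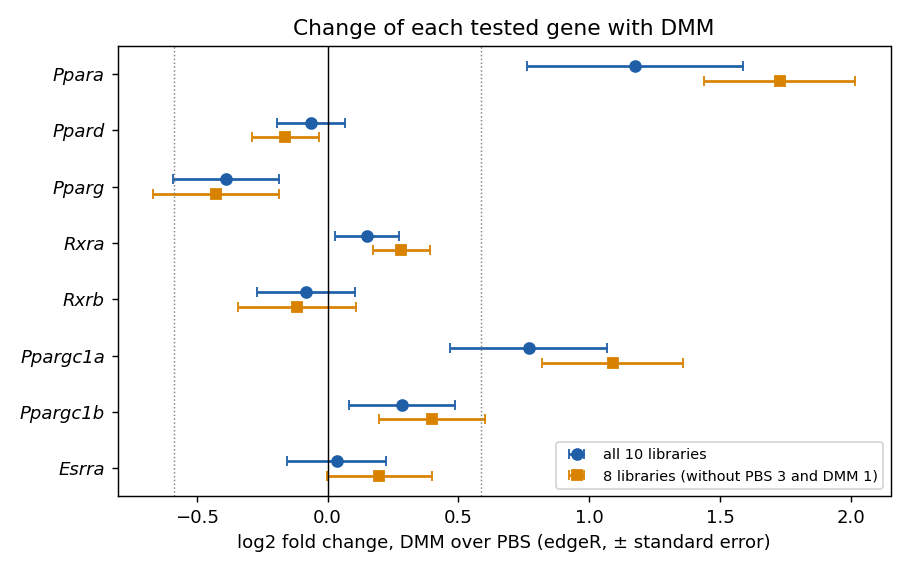
Log2 fold change of DMM over PBS (horizontal axis, edgeR, bars ± standard error) for the 8 tested genes, over all 10 libraries (circles) and over the 8 without PBS replicate 3 and DMM replicate 1 (squares). Dotted lines mark a fold change of 1.5. The estimates for Ppara and Ppargc1a lie to the right of the upper line in both sets, and those for the other 6 genes lie between the lines.

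In order of mean FPKM over the 10 libraries the genes ran Esrra (25.0 ± 5.20), Rxra (24.2 ± 3.13), Rxrb (14.5 ± 2.58), Ppargc1a (9.02 ± 4.496), Ppara (7.05 ± 4.36), Ppard (4.95 ± 0.642), Pparg (2.28 ± 0.549), Ppargc1b (1.81 ± 0.409) and Rxrg (0.0642 ± 0.0484). Within the groups the order was not the same: Ppard came before Ppara in PBS kidneys (means of 5.05 and 4.33 FPKM), and in DMM kidneys Rxra came narrowly before Esrra and Ppargc1b narrowly before Pparg. Several neighbours in the order over all 10 did not differ beyond their spread. Esrra exceeded Rxra in 4 of 5 PBS and 4 of 5 DMM libraries, and their means differed by less than either SD. Ppara exceeded Ppard in 2 of 5 PBS libraries and in 4 of 5 DMM libraries. Ppargc1a was above Ppara in 5 of 5 PBS and 3 of 5 DMM libraries, and Pparg was above Ppargc1b in the same numbers. Rxra was above Rxrb, and Ppard above Pparg, in all 10 libraries.

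**Figure D4:**
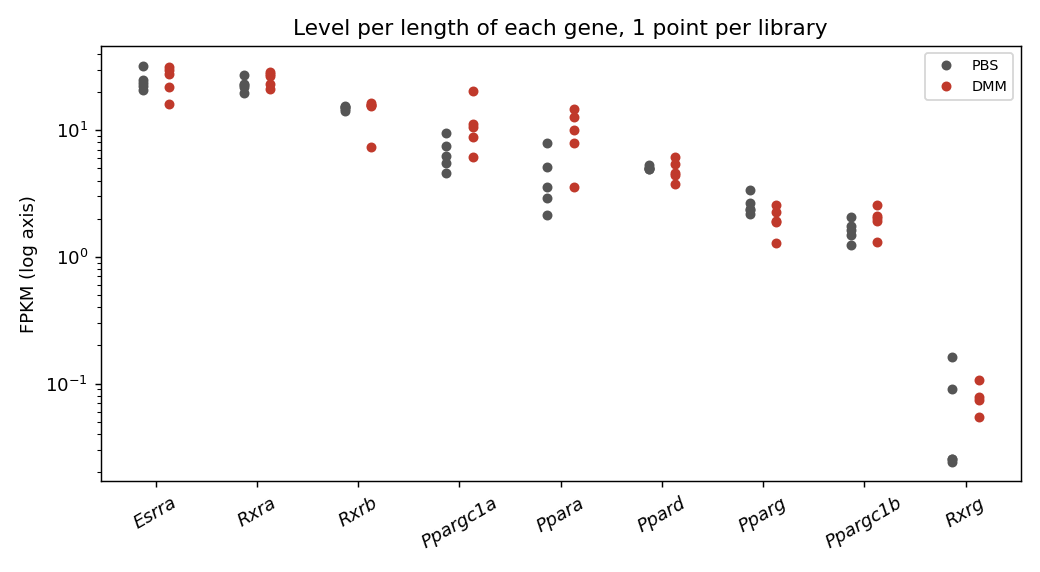
FPKM of each gene on a log axis (vertical), 1 point per library, with genes in order of their mean over the 10 libraries. DMM replicate 4, at 0 FPKM for Rxrg, cannot be drawn on the log axis. The points of Ppara spread from 2.14 to 14.7 FPKM and cross those of Ppard.

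The genes most like each member across the 10 libraries were found by the root mean square (RMS) difference of log2 CPM after each of 14518 other protein-coding genes had been centred on its own mean. For Ppara these were Acnat2 (0.21), Mfsd4b5 (0.23) and Sult1d1 (0.25), against a median of 0.95 over all genes compared. Sult1d1 is a sulfotransferase of liver and kidney. For Ppargc1a they were Ksr2 (0.077), Hmgcs1 (0.089) and Fam210a (0.14), with a median of 0.66. Hmgcs1 is the cytosolic HMG-CoA synthase of cholesterol synthesis. Esrra was closest to Pdhb, a subunit of pyruvate dehydrogenase (0.058), then to C2cd2l and Ppif (0.060 and 0.062), and Pparg to Ccdc77, Rbm3 and Lipe (0.15, 0.15 and 0.16). Rxra was closest to Atp6v1b2, Nbr1 and Plekhb2 (0.035 to 0.049), Rxrb to Sh3bp5l, Mlf2 and Ergic3 (0.047 to 0.053), Ppard to Fam222b, Naa60 and Stat6 (0.047 to 0.077), and Ppargc1b to Wdr35, Aasdh and Camta1 (0.13 to 0.14). Genes that vary little lie close to many others on this measure: the median over the genes compared was 0.35 to 0.46 for these 6 members. A single library that stands apart also weighs heavily on it. Rxrb had a log2 CPM of 4.80 in DMM replicate 4 against 5.72 to 5.93 elsewhere, and Ppargc1a 7.07 against at most 6.20. The part of DMM replicate 4 in these matches was not tested.

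Promoter windows from RefSeq (build GRCm38.p6) covered 8 of the 9 genes, with 13 windows in all, since some genes have several starts. Ppargc1b had no entry. The 250 bases before each start were searched on both strands for AGGTCA, the half-site of many nuclear receptors, for the direct repeat that PPAR and RXR bind as a pair (AGGTCA, any 1 base, then AGGTCA again, so that it contains the half-site), and for GGGCGG, the GC box. AGGTCA was present in 4 of the 13 windows, belonging to Pparg, Rxra and Rxrg, and in 14.02% of all 32851 windows. The direct repeat was present in 0 of 13 and in 0.0335% of all windows. GGGCGG was present in 8 of 13, belonging to Esrra, Ppara, Ppard, Pparg, Rxra and Rxrb, and in 32.7% of all windows. The upstream stretches of the called genes are shown because they contrast in base composition: the window of Ppara was 76.4% G or C and that of Ppargc1a 48.0%, against a median of 52.4% over all windows. Both are given 5′ to 3′ on the strand of the gene, as the longest part of the window that GENCODE M21 does not annotate as the untranslated region of a coding transcript, with GC boxes in capitals. The Ppara stretch is chr15:85735647-85735775 (plus strand), inside the gene in that annotation, where 85735647 to 85735713 belongs to the first exon of a transcript without an annotated coding sequence and the rest lies between first exons. The Ppargc1a stretch is chr5:51567727-51567975 (minus strand), upstream of the gene.
Ppara: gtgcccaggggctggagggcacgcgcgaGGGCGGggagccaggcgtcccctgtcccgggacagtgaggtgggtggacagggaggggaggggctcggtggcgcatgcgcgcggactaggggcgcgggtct
Ppargc1a: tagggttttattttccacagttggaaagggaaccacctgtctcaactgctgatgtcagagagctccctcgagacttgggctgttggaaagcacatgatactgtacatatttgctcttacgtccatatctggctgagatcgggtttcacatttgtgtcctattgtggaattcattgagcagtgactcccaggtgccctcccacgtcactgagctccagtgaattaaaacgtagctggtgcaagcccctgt
The Ppara stretch holds 1 GC box and the Ppargc1a stretch 0. A match describes the letters of the window and is not a binding site.

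Among 18 coregulators of nuclear receptors (coactivators, corepressors and their modifiers), 2 were called higher and 0 lower over the 8 libraries, and the median log2 fold change was 0.23 over all 10 libraries and 0.25 over the 8, against 0.019 and 0.021 for all genes. Both medians rested on DMM replicate 4, and without it they were -0.0025 and -0.047. Prkaa2, the α2 catalytic subunit of AMP-activated kinase, which phosphorylates PGC-1α, had a log2 fold change of 0.89 (SE 0.24) over all 10 libraries and rose by 1.19 (SE 0.17) over the 8 (edgeR adjusted p = 0.378 and 0.00555). Ncor1, a corepressor, had 0.44 and 0.57, and Ncoa2, a coactivator, 0.28 and 0.37, neither of them called. In both, the highest DMM library stood far from the middle of its group, at 675 CPM of Ncor1 against a median of 299.96 and at 192 CPM of Ncoa2 against 115. The other called gene, named after its values were seen, was Lpin1, which acts with PGC-1α and PPARα in the nucleus. Lpin1 had 0.32 (SE 0.23) over all 10 and 0.63 (SE 0.16) over the 8, where it passed only narrowly (edgeR adjusted p = 0.0482).

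Of 13 other receptors that pair with RXR, 12 were tested and Nr1i3 was not. Of these, 3 were called higher and 1 lower over the 8 libraries, with a median log2 fold change of 0.029 over all 10 and 0.022 over the 8, and both turned without single libraries, to -0.020 over all 10 without DMM replicate 1 and to -0.029 over the 8 without PBS replicate 4. Rarg, a retinoic acid receptor, was the 1 that fell (-0.50, SE 0.18, over all 10; -0.71, SE 0.15, over the 8, edgeR adjusted p = 0.0251). Vdr, the vitamin D receptor, had 0.40 (SE 0.17) over all 10 libraries and 0.62 (SE 0.13) over the 8 (edgeR adjusted p = 0.0272). The orphan receptor Nr4a1 was lower by the largest amount of this list, -1.17 (SE 0.39) and -1.35 (SE 0.45), but it was not called (edgeR adjusted p = 0.119 over the 8). The remaining called genes, named after their values were seen, were the thyroid hormone receptor gene Thrb and the bile acid receptor gene Nr1h4. Thrb had 0.52 over all 10 and 0.82 over the 8, and Nr1h4 had 0.56 and 0.94.

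Of 10 relatives and partners of ERR and PGC-1, 0 were called by edgeR in either set. Their median log2 fold change was 0.097 over all 10 libraries and 0.14 over the 8, and fell to 0.0055 and 0.016 without DMM replicate 4. With library size alone the median over all 10 was 0.0057. At the unadjusted threshold 1 was higher and 1 lower over all 10 libraries, and 2 were higher and 1 lower over the 8. Perm1, a muscle regulator induced by PGC-1 and ERR, had -0.66 (SE 0.26) and -0.74 (SE 0.31). The other ERR genes leaned upward, Esrrb with 1.10 (SE 0.45) and 1.56 (SE 0.41, edgeR adjusted p = 0.0530) and Esrrg with 0.53 (SE 0.24) and 0.81 (SE 0.22, edgeR adjusted p = 0.0572).

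Most of the genes known as targets of these receptors had fold changes above 0, against 8715 of 16505 genes over all 10 libraries and 8672 of 16550 over the 8. Of 26 PPARα targets 25 were tested, and over the 8 libraries 5 were called higher and 0 lower, with 22 of 25 fold changes above 0 and a median log2 fold change of 0.65. Over all 10 libraries 0 were called, 6 were higher at the unadjusted threshold, 21 of 25 were above 0 and the median was 0.39, or 0.26 without DMM replicate 5. Cyp4a14, a fatty acid ω-hydroxylase, had a log2 fold change of 2.19 (SE 0.78) over all 10 and 3.15 (SE 0.70) over the 8 (edgeR adjusted p = 0.0309), and Acot2, a mitochondrial acyl-CoA thioesterase, 0.65 (SE 0.20) and 0.82 (SE 0.16, edgeR adjusted p = 0.0200). Pdk4, which restrains the use of glucose, had 0.77 (SE 0.31) and 0.996 (SE 0.34) and was not called (edgeR adjusted p = 0.119 over the 8). Cyp4a10 and Cpt2, named after their values were seen, had 1.61 and 0.47 over all 10. They were also called over the 8, with log2 fold changes of 2.54 (SE 0.56) and 0.83 (SE 0.21). The edgeR adjusted p was 0.0287 for Cyp4a10 and 0.0491 for Cpt2, which passed only narrowly. Creb3l3, Acaa1a and Plin2 were the tested members of the list below 0 over the 8.

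Of 14 PPARγ targets, 9 were tested over all 10 libraries and 10 over the 8. Over the 8, 4 were called higher and 0 lower, and the median log2 fold change was 0.42 over all 10 and 0.66 over the 8. Gk, glycerol kinase, had 0.87 (SE 0.41) and 1.53 (SE 0.20, edgeR adjusted p = 0.00405), and Scd1, a fatty acid desaturase, 0.98 (SE 0.36) and 1.42 (SE 0.22, edgeR adjusted p = 0.00766). The fat cell genes Adipoq, Plin1, Cidec and Retn had too few reads to be tested in either set. Cfd, also a fat cell gene and named after its value was seen, was tested only over the 8. It was the 1 gene of the list below 0 there, at -3.75 (SE 1.81, edgeR adjusted p = 0.272). Its CPM over the 8 ran from 0.0530 to 58.3 in PBS kidneys (median 8.03) and from 0 to 5.41 in DMM kidneys. PBS replicate 4, the library with the highest sum of fat cell markers, is among these PBS libraries. The others called, named after their values were seen, were Pck1, also a gluconeogenic enzyme of the proximal tubule, and the fatty acid translocase Cd36. Pck1 had 1.19 over all 10 and 2.11 (SE 0.54) over the 8, where it passed only narrowly (edgeR adjusted p = 0.0495). Cd36 had 0.44 and 0.84 (SE 0.14, edgeR adjusted p = 0.0112 over the 8).

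All 24 ERR and PGC-1 targets, mostly enzymes of the citric acid cycle and subunits of the respiratory chain, were tested. Over the 8 libraries 3 were called higher and 0 lower, 23 of 24 were above 0 and the median log2 fold change was 0.44, and over all 10 it was 0.24 (0.15 without DMM replicate 5) with 0 called and 0 past the unadjusted threshold. Sod2, the mitochondrial superoxide dismutase, had 0.40 (SE 0.20) and 0.70 (SE 0.11, edgeR adjusted p = 0.00820). Ogdh and Idh3a, enzymes of the citric acid cycle, had log2 fold changes of 0.51 each over the 8 (edgeR adjusted p = 0.0255 and 0.0246), under the fold change needed for a call. Over all 10 Ogdh and Idh3a had 0.34 and 0.33. Ndufs1, named after its value was seen, had 0.35 over all 10 and was also called over the 8, at 0.66. Acadm stands in this list and in that of PPARα targets.

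Of 16 genes that supply fatty acids (binding proteins, transporters, lipases and acyl-CoA synthetases) 15 were tested. Acsl1 and Cd36 were the 2 called higher over the 8 libraries, with 0 lower, and the median log2 fold change was 0.25 over all 10 and 0.35 over the 8. Acsl1, an acyl-CoA synthetase that PPARα is known to induce, had 0.62 (SE 0.25) and 0.91 (SE 0.20, edgeR adjusted p = 0.0292). Fabp5, a fatty acid binding protein, had -0.64 (SE 0.26) and -0.82 (SE 0.29), and Slc27a4, a fatty acid transporter, 0.20 (SE 0.091) and 0.27 (SE 0.093), neither of them called. Cd36, Lpl and Fabp4 are shared with the PPARγ targets.

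Tubule markers leaned in the same direction as Ppara and most of the target genes. The 14 proximal tubule markers were all tested and all above 0, with a median log2 fold change of 0.75 over all 10 libraries and 1.64 over the 8, where 5 were called higher. Their summed CPM was 4314, 4337, 11128, 1658 and 3189.7 in PBS replicates 1 to 5 and 3213, 8917, 7865, 6103 and 11501 in DMM replicates 1 to 5. PBS replicate 3 and DMM replicate 1 again fell on the side of the opposite group, and PBS replicate 4, the lowest here, was also the lowest for Ppara, Ppargc1a and Rxra. Kap had the highest mean CPM of these markers, and 0 markers were at 0 in any library. A gene said to lead a marker list is the one with the highest mean CPM over the 10 libraries. CPM is not corrected for gene length, so this describes the part of a gene in the sum and does not rank levels. Slc27a2 is also in the list of fatty acid supply. The part of tubule content in the levels of Ppara, Ppargc1a and their targets was not tested.

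The 10 markers of the loop of Henle, distal tubule and collecting duct summed to 3163, 2642, 4397, 2001 and 1749.7 CPM in PBS kidneys and to 2747, 4248, 4939.5, 1968 and 5281 CPM in DMM kidneys, mostly from Umod. Pvalb alone of them was ever at 0. In all, 4 of 9 tested were called higher over the 8 libraries. DMM replicate 4 was low in the sum, with Umod at 1001 CPM, but its mean log2 CPM over the list (5.33) was above that of PBS replicates 1, 2, 4 and 5 (4.63 to 5.26).

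Most fibroblast, macrophage and T and NK cell markers leaned the other way, with median log2 fold changes of -0.53, -0.60 and -0.93 over all 10 libraries. Above 0 there were 2 fibroblast and pericyte markers (Acta2 and Pdgfrb), 1 macrophage marker (Mrc1) and 1 T and NK cell marker (Klrb1c). Mrc1 and Klrb1c were also above 0 over the 8. As with the tubule lists, 0 markers of these lists were called over all 10 libraries. The 9 fibroblast and pericyte markers, led by Col3a1, summed to 6664, 9806, 5260.2, 14478 and 9223 CPM in PBS kidneys and to 11308, 5340.2, 3750.1, 7371 and 4299.8 CPM in DMM kidneys, and 3 were called lower over the 8 libraries. The 8 macrophage markers, led by Lyz2, summed to 2082, 2159, 1671, 1872 and 2259 CPM in PBS and to 1985, 1432, 1142, 979 and 1155 CPM in DMM kidneys, with 2 called lower. The 8 T and NK cell markers, led by Cd4, lay between 41.5 and 73.2 CPM in PBS and between 14.6 and 45.1 CPM in DMM kidneys, with 1 called lower. In these lists 0 markers were at 0 in any library, and their part in the results above was not tested.

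The 15 interferon response genes were all called lower over the 8 libraries. The highest mean CPM among them was that of Irf7 in PBS kidneys (698) and that of Ifit3 in DMM kidneys (161). Over all 10 libraries 0 of the 15 genes were called and 15 of 15 were lower at the unadjusted threshold. None of the 15 was at 0 in any library. Their summed CPM was 4255, 2630.4, 3085, 4262 and 4028 in PBS kidneys and 3205, 488, 417, 415 and 353 in DMM kidneys. DMM replicate 1 thus lay within the PBS range, while PBS replicate 3 also lay with the PBS group here, unlike for Ppara and the tubule markers. Endothelial markers (739 to 1016 CPM, led by Plvap) and podocyte markers (660.0 to 985 CPM, led by Podxl) had 0 genes called by edgeR and 0 past the unadjusted threshold in either set. Of the liver list, Alb reached at most 1.52 CPM, and nearly all of its sum (59.0 to 634 CPM) was Cyp2e1, 1 of 2 genes of this list called higher over the 8 libraries. Skeletal muscle markers summed to at most 2.06 CPM, with Myh2 and Myh4 at 0 in every library.

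The share of reads from mitochondrially encoded genes also moved with the group, at 2.14, 2.30, 3.66, 1.97 and 2.004% in PBS replicates 1 to 5 and 2.30, 3.79, 4.03, 5.62 and 4.39% in DMM replicates 1 to 5. PBS replicate 3 and DMM replicate 1 crossed here as they did for Ppara, and its part in these results was not tested.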

How the data were processed

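Kidneys of 5 PBS-treated and 5 DMM-treated UUO mice were sequenced (RNA-seq), which the study states as independent replicates. The authors aligned reads to mm10 and deposited a count of reads per gene for every library, without normalization. The submitters' processing notes name HISAT2 2.0.5, while the counting tool, the annotation release and the strand setting are not given in the sources used here. The authors also deposited FPKM, in which each count is divided by gene length and an effective library size, and these values were used only to compare levels between genes. The deposited group means (signal, counts divided by size factors) served only to find which libraries they include. The deposited log2 fold change, p-value and adjusted p-value of the authors' comparison were not used. Per-sample columns that were not used number 0. No molecular identifiers are described, so reads are not independent molecules.

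Counts were filtered by filterByExpr, scaled by TMM and tested with edgeR 4.0.16 (quasi-likelihood F test, Benjamini-Hochberg adjustment over all genes tested) in R 4.3.3, without a block for replicate number. Calls took an adjusted p below 0.05 together with a fold change over 1.5. The SE of a log2 fold change was derived from its F statistic. CPM of every library used the TMM factors of the fit over 10 libraries, and log2 CPM a prior count of 2. The alternatives were DESeq2 1.42.0, scaling by RLE or by library size, no filter or a stricter one, a block for replicate number, protein-coding genes, and leaving out each library. The steps were tested on simulated counts.

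Members, gene lists and the set of 8 libraries were chosen with earlier results of these data known. All 9 members were named, and, from each of the 7 other lists of the pathway, up to 3 genes of smallest unadjusted p over the 10 libraries. Genes most like a member were the 3 with the smallest RMS difference of centred log2 CPM, for members with a mean of at least 1 CPM.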

Additional observations from a re-analysis of the deposited data

Results flagged for a closer look

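Rxrb in DMM replicate 4, at 27.7 CPM, lay far below the other DMM libraries, which held 57.4 to 60.9 CPM. Its gap to the nearest of them took up 0.925 of the whole range of the group on the log2 CPM scale, which is past the limit of Dixon's test for 5 samples. The highest and lowest library were checked in 18 combinations of a gene and a group, and chance picks out about 1 in 20 groups. DMM replicate 4 also had the lowest CPM of Ppard, Pparg and Esrra and the highest of Ppargc1a and Ppargc1b among the 10 libraries.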

How the results depend on the processing

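Over all 10 libraries, the 0 genes called higher and 0 lower by edgeR also came from RLE scaling, library size alone, no filter, a stricter filter and protein-coding genes. DESeq2 called 14 higher and 36 lower, and an unadjusted p with the fold change gave 315 and 678, with 2 members. The 8 libraries gave 452, 590 and 2 members, Ppara (log2 fold change 1.73) and Ppargc1a (1.09). Leaving out each of the 10 libraries gave 0 to 50 higher and 0 to 436 lower, the upper ends without DMM replicate 1.

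Over the 8 libraries an unadjusted p gave 1067 higher and 1198 lower, DESeq2 749 and 911, and library size alone 276 higher. The last scaling lowers the median log2 fold change of all genes from 0.021 to -0.093, and Ppara and Ppargc1a stayed called under it. Leaving out each of the 8 gave 131 to 1129 higher (lowest without PBS replicate 5, highest without DMM replicate 4), 276 to 1281 lower (the same libraries) and 1 to 2 members. The alternatives over the 8 libraries were chosen after seeing the data.

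Among the members, directions turned only for those near 0. Esrra was -0.031 with library size alone and -0.051 to 0.16 without single libraries, Ppard -0.16 to 0.016, and Rxrb -0.13 to 0.080 over all 10 and -0.22 to 0.089 over the 8. The cause was not tested, except that Ppard and Rxrb turned only without DMM replicate 4. With library size alone over all 10, Rxra had 0.070, Ppard -0.13, Rxrb -0.14 and Ppargc1b 0.18, each in its direction under TMM. Under TMM these members had 0.15, -0.063, -0.082 and 0.28. The median log2 fold change of the coregulators was -0.0025 to 0.29 without single libraries over all 10 and -0.047 to 0.39 over the 8, and turned only without DMM replicate 4. That of the other RXR partners was -0.020 to 0.073 over all 10 and -0.029 to 0.079 over the 8, turning without PBS replicate 4 (-0.015 over all 10), PBS replicate 5 (-0.019, over the 8 only) or DMM replicate 1, and was -0.056 and -0.098 with library size alone.

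No pairing of the mice by replicate number is described in the sources used here. The deviations of same-numbered libraries from their group means correlated at -0.060, 0.079, 0.34, 0.12 and -0.22. PBS replicate 2 alone correlated best with the DMM library of its own number. These values cannot settle whether mice were paired. With the replicate block edgeR called 0 genes, and Ppara had a log2 fold change of 1.17 (edgeR adjusted p = 0.251). Depth limits Rxrg, with at most 7 reads per library.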
